A study of Mus musculus with 12 samples.

Results

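The genes studied here are 10 neighbours of Cfl2 on mouse chromosome 12, Dtd2, Nubpl, Arhgap5, Akap6, Npas3, Sptssa, Eapp, Snx6, Baz1a and Ppp2r3c in order of position, out of 19938 genes measured. They were chosen by position from the genes that flank Cfl2, with earlier results of these arrays in view, and each was read from its brightest probe set by the mean over 12 arrays, among those that name 1 gene symbol. They run from the measured gene at place 10 on one side of Cfl2 to that at place 2 on the other, with Gpr33 and Egln3 left out. The rule used position and, for the probe set, the mean level, but as results were known the p-values of single neighbours are given as values of a fit across all probe sets and serve as description. Total RNA of quadriceps muscle from C57Bl/6 mice at day 7 after birth was hybridized to Affymetrix mouse gene arrays, with 6 arrays labelled KO, whose label gives the genotype cofilin-2 null, and 6 arrays labelled WT, whose label gives wildtype, although the level of Cfl2 runs against both. The methods of the study describe separate mice and littermate controls, while the labels name neither a litter nor the part of Cfl2 that was removed. Levels below are deposited log2 values, and each difference is labelled KO minus labelled WT, so that a difference of 1 is 2-fold.

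Cofilin-2 is the muscle form of the cofilins, small proteins that bind and sever actin filaments and keep the thin filaments of the sarcomere in order. Neighbouring genes on a chromosome can share regulatory DNA, and genes beside a knocked-out gene are therefore read to see how far the surroundings of the altered locus differ. The 10 neighbours have unrelated jobs, among them endosomal sorting, sphingolipid synthesis, chromatin remodelling and the assembly of respiratory complex I.

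Cfl2 ran against the labels. Its level was 12.31, 12.31, 12.39, 12.43, 12.41 and 12.43 on the arrays labelled KO1 to KO6, against 4.92, 5.08, 7.71, 5.92, 6.52 and 6.20 on those labelled WT1 to WT6. It thus averaged 12.38 ± 0.06 on the arrays labelled KO and 6.06 ± 1.02 on the arrays labelled WT (SD, n = 6 each), a difference of 6.32 ± 0.36 (SE, adjusted p = 1.98e-07 by limma). The labels were kept as they are, and each direction below is that of the labels and would turn round if the labels were exchanged.

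Over all 21789 probe sets with 1 symbol, 31.9% passed an adjusted p of 0.05, 19.5% in the direction of a higher level on the arrays labelled KO and 12.4% of a lower level. Higher values made up 61.1% of these calls, against 36.2% once each array was centred on its median and 50.6% after quantile normalization. The array medians were 7.16 to 7.18 on the arrays labelled KO and 7.08 to 7.13 on those labelled WT. Skeletal muscle markers were high in both groups, with a mean level of 12.72 to 12.96 on the arrays labelled KO and 12.70 to 12.94 on those labelled WT, and 2 of 10 called higher and 5 lower. Called markers were 5 higher and 1 lower of 9 for adipocytes, 5 higher of 6 for macrophages, 5 higher and 1 lower of 6 for fibroblasts and 5 higher of 6 for endothelium. The adipocyte list had mean levels of 8.87 to 10.30 on the arrays labelled KO and 8.90 to 9.69 on those labelled WT, and the macrophage list 8.56 to 8.74 on the arrays labelled KO and 8.03 to 8.5 on those labelled WT. The fibroblast list had 11.48 to 11.63 on the arrays labelled KO and 11.07 to 11.35 on those labelled WT, and the endothelial list 10.29 to 10.39 on the arrays labelled KO and 9.69 to 10.15 on those labelled WT. Of brown fat markers 1 of 3 was higher, and of Schwann and neural markers 1 of 4 was higher and 2 were lower. Of 6 neutrophil and 2 erythroid markers, 0 were called by limma, at an unadjusted p of 0.05 or by the methods' t-test after Benjamini-Hochberg. Erythroid mean levels were 8.12 to 8.94 on the arrays labelled KO and 7.12 to 10.40 on those labelled WT. Neutrophil markers had mean levels of 5.69 to 6.10 on the arrays labelled KO and 5.88 to 9.14 on those labelled WT. The part of these cell types in the results below was not tested beyond a fit that held the adipocyte level as a covariate, and in whole muscle fewer cells of a type cannot be told apart from less RNA per cell. P-values measure the spread between these arrays, whose number limits the precision.

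The sequences before the starts of Cfl2 and of the 2 neighbours with the largest differences, Snx6 and Sptssa, are shown because all 3 genes lie close together and are read from the same strand. Each run is the 250 bases before the annotated start from RefSeq, build GRCm38.p6, minus strand, at chr12:54862878-54863127 for Cfl2, chr12:54795663-54795912 for Snx6 and chr12:54656573-54656822 for Sptssa. Capitals mark matches on either strand to the CCAAT box (CCAAT), the GC box (GGGCGG) and the E-box (CANNTG).
Cfl2: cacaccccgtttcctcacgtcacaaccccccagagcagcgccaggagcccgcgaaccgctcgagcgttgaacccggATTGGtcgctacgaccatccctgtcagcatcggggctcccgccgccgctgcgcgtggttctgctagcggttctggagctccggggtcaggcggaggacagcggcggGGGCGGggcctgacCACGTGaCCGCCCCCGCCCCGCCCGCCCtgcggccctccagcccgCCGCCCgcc
Snx6: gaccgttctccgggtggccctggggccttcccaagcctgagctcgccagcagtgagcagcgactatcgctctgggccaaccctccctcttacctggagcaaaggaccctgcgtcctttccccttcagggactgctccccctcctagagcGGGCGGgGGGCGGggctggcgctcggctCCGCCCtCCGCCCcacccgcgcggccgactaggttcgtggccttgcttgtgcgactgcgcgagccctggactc
Sptssa: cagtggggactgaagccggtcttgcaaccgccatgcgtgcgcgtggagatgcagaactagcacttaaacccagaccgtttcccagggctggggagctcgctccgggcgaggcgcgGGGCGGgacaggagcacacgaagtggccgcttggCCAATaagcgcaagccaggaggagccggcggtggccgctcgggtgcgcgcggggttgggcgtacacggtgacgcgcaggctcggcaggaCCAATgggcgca
All are rich in G and C, with 75.3% for Cfl2, 70.3% for Snx6 and 70.0% for Sptssa over the window of 250 bases before and 50 bases after the start. Snx6 held 4 GC boxes before its start, the first bases at -101, -94, -73 and -66 counted from the start, and no CCAAT box. Sptssa held CCAAT boxes at -101 and -12 and a GC box at -135, while Cfl2 held a CCAAT box at -174, an E-box at -54 and a run of overlapping GC boxes.

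Of the 10 neighbours, 9 matched the promoter table by symbol, and Baz1a did not. A GC box stood in 4 of the 9 windows, against 35.7% of all 32851 promoters of the same length, and a CCAAT box in 3 of 9, against 37.4%. An E-box stood in 5 of 9, against 72.3%. The TATA box (TATAAA) was found in Arhgap5 alone, against 13.6% of promoters, the cAMP response element (TGACGTCA), which overlaps an E-box there, in Nubpl alone, against 1.79%, and the CArG box in none, against 1.63%. These matches describe the letters of the windows and nothing more.

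Of the 10 neighbours, 3 passed the test, Sptssa and Dtd2 higher and Snx6 lower on the arrays labelled KO, so that 30.0% were called beside 31.9% of all probe sets. By direction, 2 of 10 were higher beside 19.5%, and 1 of 10 lower beside 12.4%. The groups did not overlap in Snx6 and Sptssa, 2 of 10 genes beside 15.4% of all probe sets. The median difference was 0.09 over the 10 neighbours and -0.02 over all genes, and the median size of the difference was 0.14 over the neighbours and 0.11 over all genes. In the values as deposited, the share called was near the background. With each array centred on its median, 2 of 10 were called, 1 of them higher, beside 42.1% of all probe sets under the same centring. The share called was thus below the background under that centring. As the genes were chosen with these results known, the counts are descriptive.

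**Figure D1:**
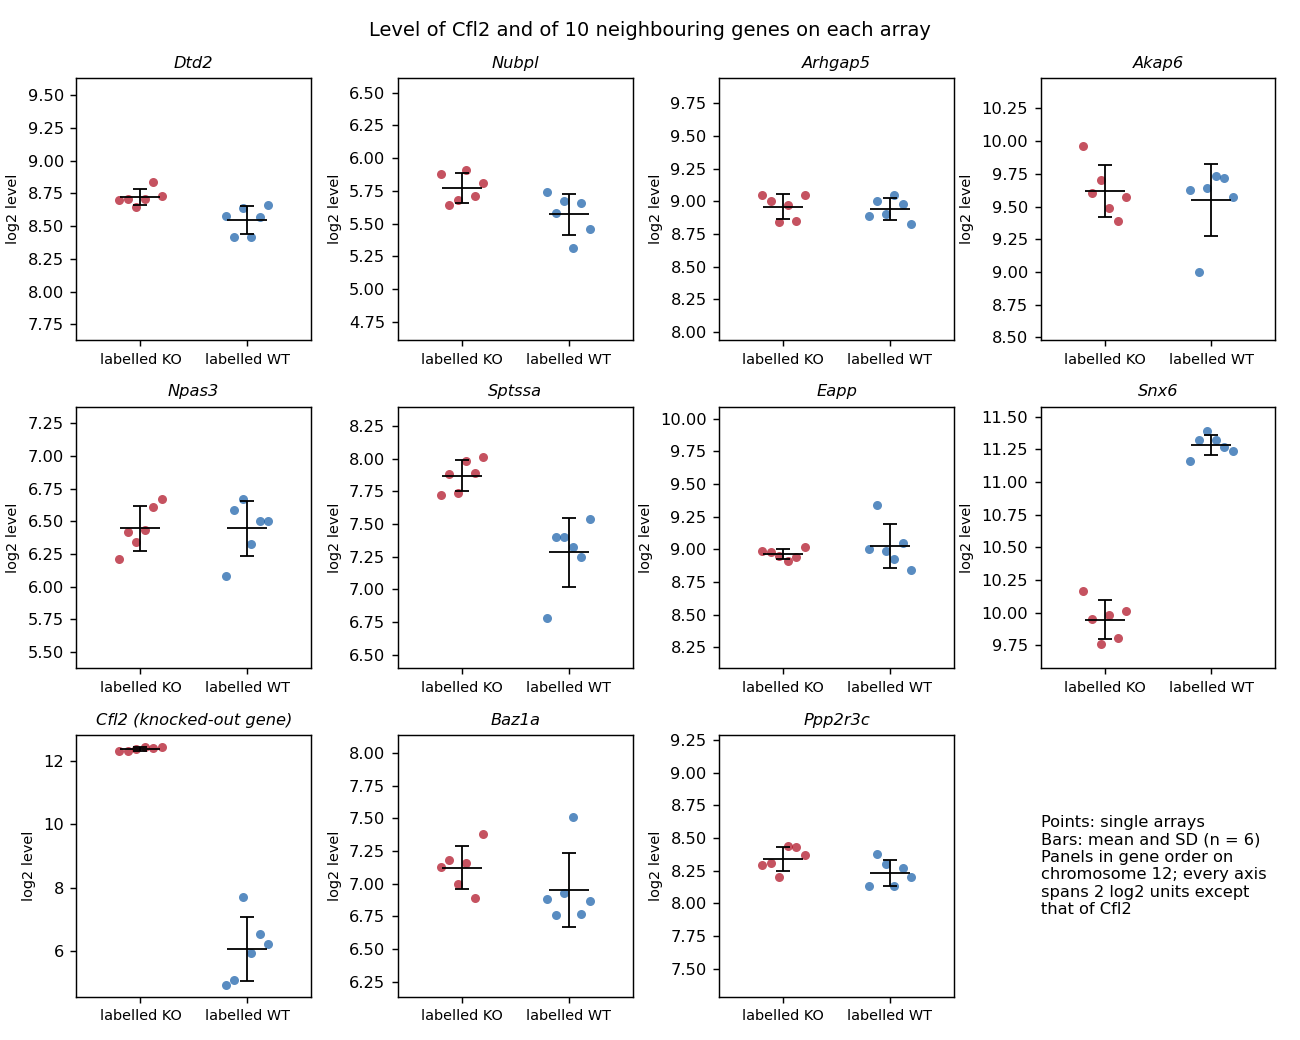
Log2 level of Cfl2 and its 10 neighbours on each array, with labelled KO on the left and labelled WT on the right of every panel, panels in order of position on chromosome 12, points for single arrays and bars for the mean and SD of 6 arrays. Snx6 and Sptssa separate the groups in opposite directions, Dtd2 nearly does, and the other 7 neighbours overlap, with Cfl2 high on the arrays labelled KO.

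Snx6 encodes a sorting nexin that works with the retromer to carry cargo from endosomes back to the Golgi. It is the measured gene next to Cfl2 in the direction of Cfl2's transcription. Its level was 10.17, 9.95, 9.76, 9.98, 9.81 and 10.01 on the arrays labelled KO1 to KO6, against 11.16, 11.32, 11.39, 11.32, 11.27 and 11.24 on those labelled WT1 to WT6. Every array labelled KO was below every array labelled WT, and the spread within each group was small beside the gap. Snx6 averaged 9.95 ± 0.15 on the arrays labelled KO and 11.28 ± 0.08 on the arrays labelled WT (SD, n = 6 each), a fall of 2.53-fold. The difference was -1.34 ± 0.07 (SE, adjusted p = 1.22e-07 by limma), and 67 of the 19938 genes, or 0.336%, differed by more in either direction. Fitted beside the adipocyte level, it was -1.34 ± 0.09.

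Sptssa encodes a small subunit that activates serine palmitoyltransferase, the enzyme that starts sphingolipid synthesis. It lies on the same side of Cfl2 as Snx6, with Eapp between them. Its level was 7.72, 7.88, 7.74, 7.98, 7.89 and 8.01 on the arrays labelled KO1 to KO6, against 6.78, 7.40, 7.40, 7.32, 7.25 and 7.54 on those labelled WT1 to WT6. The groups did not overlap, although the array labelled WT1 lay well below the other arrays labelled WT. Sptssa averaged 7.87 ± 0.12 on the arrays labelled KO and 7.28 ± 0.26 on the arrays labelled WT (SD, n = 6 each). That is a rise of 1.5-fold, a difference of 0.59 ± 0.11 (SE, adjusted p = 0.000838 by limma), and 0.69 ± 0.14 when fitted beside the adipocyte level.

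Eapp, whose protein binds activating E2F factors, sits between Snx6 and Sptssa and did not pass the test. Its lowest, median and highest levels were 8.91, 8.97 and 9.02 on the arrays labelled KO, against 8.84, 8.995 and 9.34 on those labelled WT. The groups overlapped, with the arrays labelled KO inside the range of those labelled WT. The difference was -0.06 ± 0.07 (SE, adjusted p = 0.525 by limma), with a 95% interval of -0.21 to 0.09, which leaves out a change of the size seen in either gene beside it.

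Baz1a is the nearest measured gene on the other side of Cfl2, and encodes a subunit of ISWI complexes, which slide nucleosomes. Its lowest, median and highest levels were 6.89, 7.15 and 7.38 on the arrays labelled KO, against 6.76, 6.88 and 7.51 on those labelled WT. The highest value of all was on the array labelled WT4, above the other 5 arrays labelled WT, which lay between 6.76 and 6.93. The difference was 0.17 ± 0.12 (SE, adjusted p = 0.288 by limma), with a 95% interval of -0.08 to 0.42. Without the array labelled WT4 it was 0.28, with an adjusted p of 0.0117, so that 1 array decided this call.

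Ppp2r3c, a regulatory subunit of protein phosphatase 2A, follows Baz1a. Its lowest, median and highest levels were 8.20, 8.34 and 8.44 on the arrays labelled KO, against 8.13, 8.24 and 8.38 on those labelled WT. The groups overlapped and the test was not passed. The difference was 0.11 ± 0.06 (SE, adjusted p = 0.165 by limma), with a 95% interval of -0.01 to 0.22.

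Farther along on the side of Snx6 lies Npas3, a transcription factor known mainly from the brain. It had levels of 6.21, 6.43 and 6.67 (lowest, median and highest) on the arrays labelled KO, against 6.08, 6.50 and 6.67 on those labelled WT. Its difference was 0.00 ± 0.10 (SE, adjusted p = 0.991 by limma), with a 95% interval of -0.21 to 0.21. A second probe set of Npas3 gave 0.05 ± 0.07 (adjusted p = 0.617), so neither separated the groups.

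Akap6 anchors protein kinase A at the nuclear envelope of muscle cells. Its lowest, median and highest levels were 9.39, 9.59 and 9.96 on the arrays labelled KO, against 9.0, 9.64 and 9.73 on those labelled WT. The low value belonged to the array labelled WT2, and the other arrays labelled WT lay inside the range of those labelled KO. The difference was 0.07 ± 0.12 (SE, adjusted p = 0.690 by limma), with a 95% interval of -0.19 to 0.33.

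Arhgap5, a GTPase-activating protein, had levels of 8.84, 8.99 and 9.05 (lowest, median and highest) on the arrays labelled KO, against 8.83, 8.94 and 9.05 on those labelled WT. Both groups thus filled nearly the same range. The difference was 0.02 ± 0.05 (SE, adjusted p = 0.815 by limma), with a 95% interval of -0.09 to 0.13, the narrowest of the 7 neighbours that were not called.

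Nubpl, which delivers iron-sulfur clusters to complex I during its assembly, lay just outside the threshold. Its levels were 5.88, 5.64, 5.68, 5.91, 5.71 and 5.81 on the arrays labelled KO1 to KO6, against 5.74, 5.58, 5.67, 5.31, 5.66 and 5.46 on those labelled WT1 to WT6. Of the arrays labelled KO, 3 were above all arrays labelled WT. The difference was 0.20 ± 0.07 (SE, adjusted p = 0.0510 by limma), with a 95% interval of 0.04 to 0.36. It passed the threshold without the array labelled KO2 (adjusted p = 0.0413), WT1 (0.0303) or WT3 (0.0457).

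Dtd2, a deacylase that frees transfer RNAs from wrongly attached amino acids, lay just inside the threshold. Its levels were 8.70, 8.71, 8.65, 8.71, 8.84 and 8.73 on the arrays labelled KO1 to KO6, against 8.58, 8.42, 8.64, 8.42, 8.57 and 8.66 on those labelled WT1 to WT6. Of the arrays labelled KO, 5 were above all arrays labelled WT. The difference was 0.17 ± 0.05 (SE, adjusted p = 0.0194 by limma), a 1.13-fold rise, and the call was lost when each array was centred on its median (adjusted p = 0.0905) or quantile normalized (adjusted p = 0.280). Nubpl, Npas3 and Baz1a were dimmer than the median probe set, where a change in RNA can be understated. For the 7 neighbours not called, a p past the threshold does not show that the groups were alike, and the intervals give the sizes of difference that the data allow.

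**Figure D2:**
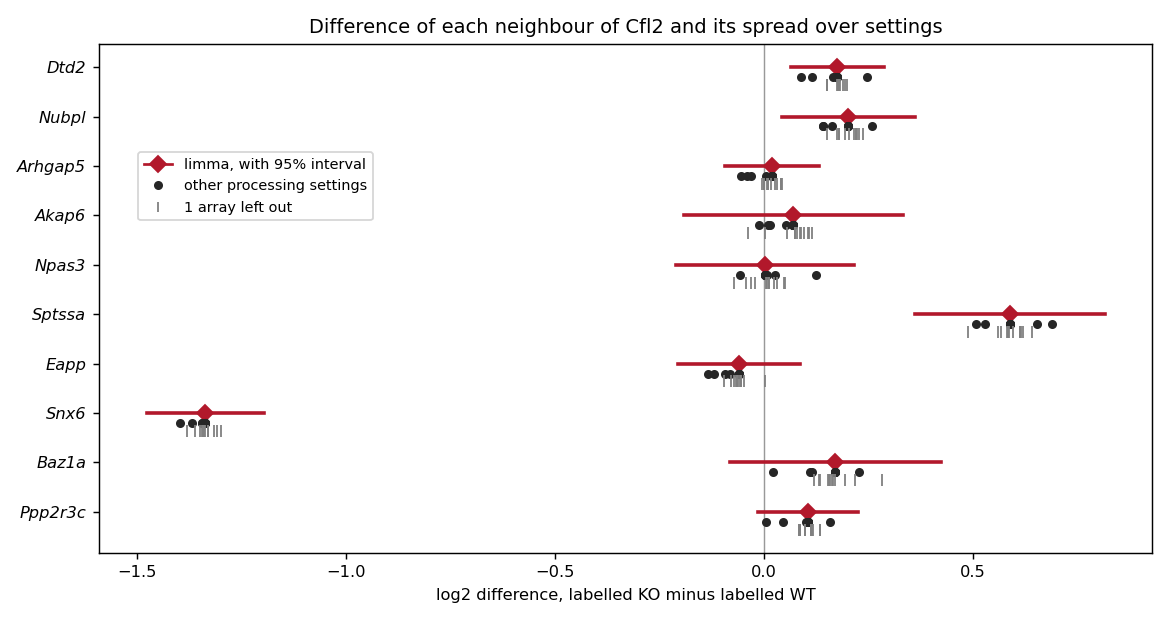
Log2 difference of each neighbour, labelled KO minus labelled WT, with its 95% interval (red diamond and bar), its values under the other processing settings (dark points) and its values with 1 array left out (grey ticks), genes in order of position from the top. Snx6 stayed between -1.40 and -1.30 and Sptssa between 0.49 and 0.69, while the values of Arhgap5, Akap6, Npas3 and Eapp lay on both sides of 0.

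To set the 10 neighbours in their surroundings, the 25 nearest measured protein-coding genes on each side of Cfl2 were taken by order alone. Of these 50 genes, which include the 10 neighbours, 8 were higher on the arrays labelled KO and 9 lower, 34.0% called beside 31.9% of all probe sets. Centred on array medians, 21 were called, 7 of them higher, 42.0% beside 42.1% of all probe sets under the same centring. The median size of the difference was 0.13 over the 50 genes and 0.11 over all genes. Of the 25 genes on the side of Snx6, 7 were higher and 5 lower. Of the 25 on the side of Baz1a, 1 was higher and 4 were lower, a contrast that was not tested. The sides also differed in level, with means of 8.07 to 8.19 on the arrays labelled KO on the side of Snx6 and 7.29 to 7.34 on the side of Baz1a. Without probe sets dimmer than the median, 16 of 31 genes around Cfl2 were called (51.6%), beside 50.1% of all probe sets kept.

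The size of the differences was then read by distance from Cfl2. The median absolute difference was 0.75 for the genes next to Cfl2, 0.13 at places 2 to 5, 0.15 at places 6 to 10, 0.11 at places 11 to 25, 0.16 at places 26 to 50 and 0.15 at places 51 to 100. The first of these medians joins 2 unlike genes, Snx6 with -1.34 and Baz1a with 0.17. Across chromosome 12, 206 of 541 genes in this order were called (38.1%), against 5754 of 17522 genes of the other chromosomes (32.8%). Differences beyond 1 in size made up 2.22% on chromosome 12 and 0.799% elsewhere. Neither contrast was tested. The chromosome 12 genes averaged 7.64 to 7.66 on the arrays labelled KO and 7.60 to 7.63 on those labelled WT. Genes of the other chromosomes were dimmer, at 7.34 to 7.35 and 7.30 to 7.32. Brighter probe sets were called more often, 50.1% of those not dimmer than the median beside 31.9% of all.

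Between Npas3 and Sptssa lies Egln3, a prolyl hydroxylase that marks hypoxia-inducible factors for destruction, which changed more than any of the 10 neighbours. Its level was 10.09, 9.68, 9.19, 9.49, 9.39 and 9.63 on the arrays labelled KO1 to KO6, against 11.49, 12.08, 11.26, 11.24, 11.36 and 12.04 on those labelled WT1 to WT6. The groups did not overlap, and the difference was -2.0 ± 0.17 (SE, adjusted p = 4.34e-06 by limma). Egln3 and Snx6 were the only genes among the 50 whose difference passed 1 in size, and between them Eapp did not change past the test while Sptssa rose.

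Among the other genes around Cfl2, the largest called rises were in G2e3, a ubiquitin ligase, at 0.39 ± 0.11, and Brms1l at 0.38 ± 0.06. Brms1l belongs to a histone deacetylase complex. The next called rises were in Dock4, an activator of Rac, at 0.37 ± 0.11, the cell adhesion gene Nrcam at 0.35 ± 0.05 and Heatr5a at 0.32 ± 0.07. Spreads are SEs, and the adjusted p of the 5 rises lay between 0.000285 and 0.0163 by limma. The largest falls after Egln3 were in Dnajb9, a chaperone of the endoplasmic reticulum, at -0.54 ± 0.08, Nfkbia, the inhibitor of NF-kappa-B, at -0.39 ± 0.08 and the phospholipase Pnpla8 at -0.34 ± 0.06. Prkd1, a protein kinase, and Ralgapa1, which switches off Ral GTPases, tied at -0.28, with SEs of 0.09 and 0.07 (adjusted p of the 5 falls between 0.000145 and 0.0284 by limma). Just outside the set studied, Heatr5a had 0.32 ± 0.07 on one side and Prorp -0.02 ± 0.06 on the other (SE), and Gpr33, passed over within it, had -0.10 ± 0.05. Egln3 aside, none of the genes named here reached the size of the change in Sptssa.

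**Figure D3:**
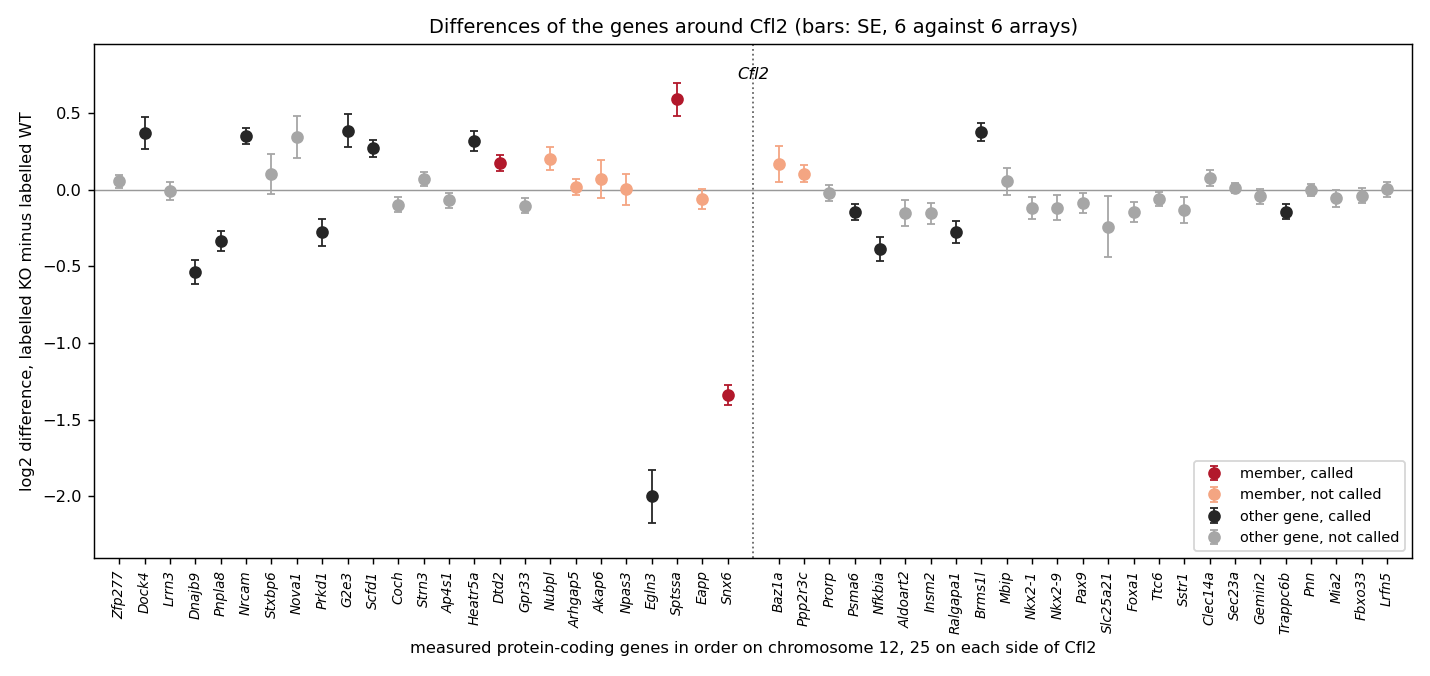
Log2 difference, labelled KO minus labelled WT, of the 25 nearest measured protein-coding genes on each side of Cfl2 in order of position, with SE bars, red for called neighbours of the set studied, orange for those not called, black for other called genes and grey for other genes not called. Egln3 at -2.0 and Snx6 at -1.34 stand far below the rest, which lie between -0.54 and 0.59.

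The neighbours were then set beside genes that share their pathway, each list counted without its own neighbour. Over all 10 lists, 43 of 143 measured genes had a higher level on the arrays labelled KO and 23 a lower one, 46.2% called beside 31.9% of all probe sets. Centred on array medians, 65 were called, 32 of them higher, 45.5% beside 42.1% of all probe sets under the same centring. After quantile normalization 61 were called, 34 of them higher, 42.7% beside 30.5%. Without probe sets dimmer than the median, 60 of 119 pathway genes (50.4%) were called beside 5456 of 10895 probe sets (50.1%), so that the excess over the background was not seen among the brighter ones. The lists were drawn up with results of these arrays known, so this too is a description. The counts of single lists below stand beside 19.5% of all probe sets higher and 12.4% lower.

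Of 16 sorting nexins and retromer subunits other than Snx6, 6 were higher on the arrays labelled KO and 0 lower, with a median of 0.13. At an unadjusted p of 0.05 by limma 7 were higher and 0 lower, and by the methods' t-test after Benjamini-Hochberg 6 and 0. Centring on array medians left 3 higher and 1 lower, and quantile normalization 4 and 1. The largest rises were in the sorting nexins Snx7 at 0.42 ± 0.07, Snx9 at 0.27 ± 0.07 and Snx2 at 0.21 ± 0.04 (SE; adjusted p = 0.000817, 0.00577 and 0.00226 by limma), the last a partner of Snx6 in the membrane-bending dimers of the retromer pathway. Around Sptssa, 5 of 15 genes of serine palmitoyltransferase and ceramide synthesis were higher and 1 lower, with a median of 0.10. Centring on array medians gave 5 higher and 3 lower with a median of 0.04, and quantile normalization 5 and 2. Ormdl1 and Ormdl2, which restrain the enzyme, rose by 0.41 ± 0.05 and 0.33 ± 0.07, and Sptlc2, a catalytic subunit, by 0.35 ± 0.07 (SE; adjusted p = 7.78e-05, 0.00286 and 0.00123 by limma). The other subunits and inhibitors did not pass the test, with Sptssb at 0.03, Sptlc1 at 0.10, Sptlc3 at -0.12 and Ormdl3 at -0.13 (adjusted p between 0.0867 and 0.542 by limma). Kdsr, which acts in the step after it, was lower at -0.18 ± 0.06 (adjusted p = 0.0408 by limma).

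Around Eapp, 5 of 13 E2F family and partner genes were higher and 2 lower, with a median of 0.24. Rbl1, a pocket protein of the retinoblastoma family, rose by 0.84 ± 0.14, while Rb1 itself stood at -0.58 ± 0.08 and the dimer partner Tfdp2 at -0.49 ± 0.14 (SE; adjusted p = 0.000657, 0.000115 and 0.0193 by limma). Quantile normalization gave 3 higher and 2 lower of this list, and the adipocyte covariate 2 and 1. Around Baz1a, 3 of 12 ISWI complex genes were higher and 3 lower, led by Baz2a at -0.33 ± 0.06, Chrac1 at 0.32 ± 0.09 and Baz2b at -0.28 ± 0.06. Around Ppp2r3c, 5 of 18 protein phosphatase 2A genes were higher and 4 lower, led by the regulatory subunits Ppp2r2b, Ppp2r2a and Ppp2r5d at 0.29, 0.29 and 0.28. Centring on array medians gave 1 higher and 4 lower of the ISWI list and 4 and 4 of the phosphatase list, and the adipocyte covariate 0 and 2 of the ISWI list and 1 and 1 of the phosphatase list.

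Around Npas3, 1 of 17 bHLH-PAS factors was higher and 4 were lower, with Hif3a at -0.85 ± 0.27, the clock factor Arntl at -0.77 ± 0.14 and Npas1 at -0.22 ± 0.08 (SE; adjusted p = 0.0253, 0.000892 and 0.0453 by limma). Centring on array medians gave 0 higher and 4 lower, and quantile normalization 1 and 2. Around Akap6, 4 of 20 genes of A-kinase anchoring were higher and 6 lower, led by Prkar2b, a regulatory subunit of protein kinase A that also lies on chromosome 12, at 1.40 ± 0.27, Pakap at -1.06 ± 0.09 and Akap13 at -0.47 ± 0.08. Centring on array medians gave 3 higher and 10 lower, and the adipocyte covariate 1 and 6.

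Nubpl stands beside a list with calls in a single direction. Of 13 other complex I assembly factors, 10 were higher on the arrays labelled KO and 0 lower. The same counts came at an unadjusted p of 0.05 by limma and by the methods' t-test after Benjamini-Hochberg. The share called was 76.9%, beside 31.9% of all probe sets and 50.1% of those not dimmer than the median. The list was bright, with mean levels of 8.50 to 8.67 on the arrays labelled KO against 7.20 to 7.22 over all genes. Centring on array medians or quantile normalization left 8 higher and 0 lower. The median was 0.24, beside 0.20 for Nubpl itself, which was not called. Ndufaf5 was higher by 0.60 ± 0.08, Ndufaf6 by 0.44 ± 0.09 and Ndufaf7 by 0.44 ± 0.05 (SE; adjusted p = 8.11e-05, 0.00268 and 2.08e-05 by limma). Around Dtd2, 2 of 4 genes of the list of deacylases that correct transfer RNAs were higher, Aarsd1 at 0.22 ± 0.05 and Prorsd1 at 0.16 ± 0.05, while centring on array medians left 1 higher and 1 lower, and quantile normalization 0 and 1.

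**Figure D4:**
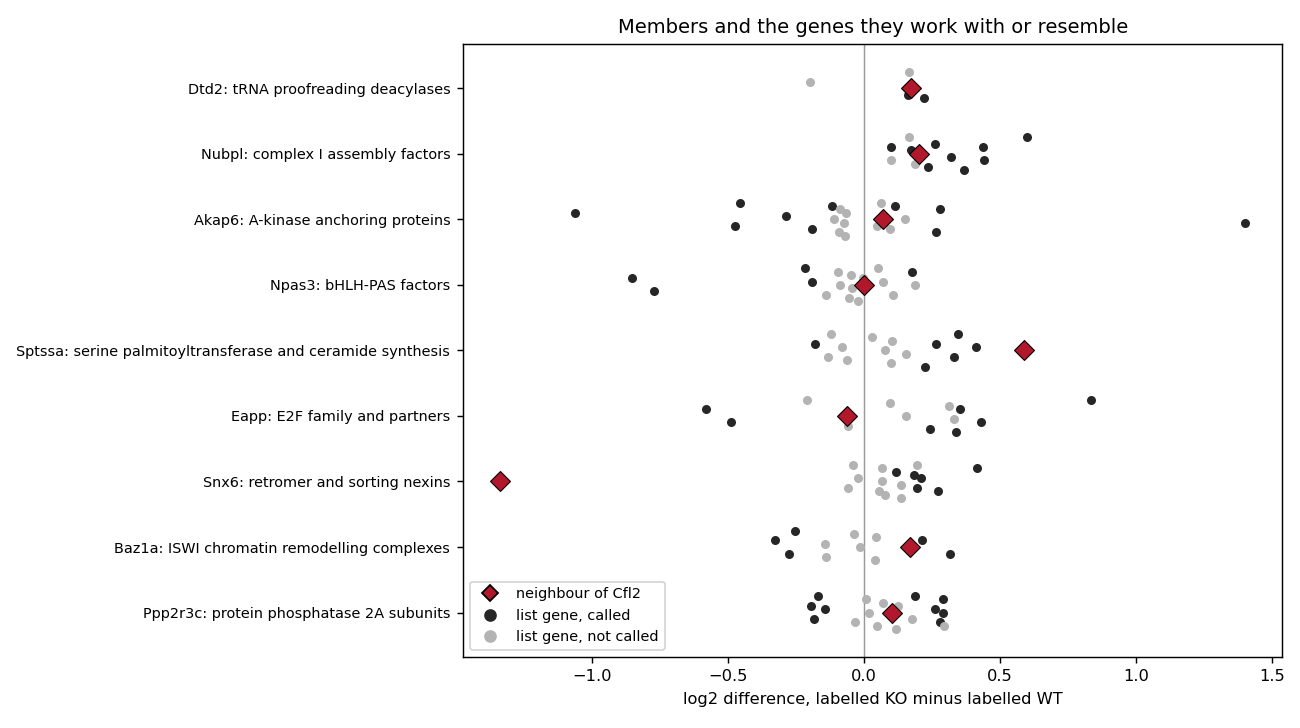
Log2 difference, labelled KO minus labelled WT, of the neighbours of Cfl2 other than Arhgap5 (red diamonds) and of the genes on their pathway lists (black where called, grey where not), lists in order of the neighbours' position from the top. Snx6 at -1.34 lies below all other genes of its list, whose called genes lie above 0 in the values as deposited, whereas Nubpl at 0.20 lies among the complex I assembly factors.

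Lastly, the genes with the most similar profile were found for the 3 neighbours with the largest differences, as the smallest root mean square difference over the 12 arrays after each gene was centred on its own mean. Closest to Snx6 were the probe sets of Mir27a (0.0981) and Mir23a (0.148), precursors on chromosome 8, and of Otulin (0.110), a deubiquitinase gene on chromosome 15. Closest to Sptssa were Ndn (0.122), Kcnn2 (0.123) and Tsr2 (0.127), and closest to Nubpl were Fam229b (0.0703), Nup93 (0.0705) and 1110038F14Rik (0.0713). None of these 9 genes lies on chromosome 12. The search took in all 19938 genes, and of the placed protein-coding ones chromosome 12 held 541 against 17522 on the other chromosomes. With so small a share there, the absence says nothing about position. The profile of Cfl2 was 3.88 away from that of Snx6, a distance set largely by their differences of 6.32 and -1.34.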

How the data were processed

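Quadriceps RNA of 12 mice was measured on 12 arrays, 6 labelled KO and 6 labelled WT by title. The authors extracted array images with GCOS and summarised genes with Affymetrix Power Tools. Version, summary algorithm and build of that step were not given in the sources used here. As deposited, the table was read as log2 levels, a scale inferred from its range. Depth does not apply to arrays, and no detection calls were used.

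Of 35556 probe sets, 21789 had 1 gene symbol in the platform annotation, 1621 had several and 12146 were not listed. Symbols were updated by gene identifier through a RefSeq gene table (GRCm38.p6), which matched 21698 probe sets and gave the gene order, with predicted genes left out. Differences came from limma (version 3.58.1, lmFit and eBayes, run in R 4.3.3) with no covariate, and p-values were adjusted over the 21789 probe sets by Benjamini-Hochberg, with calls at 0.05. The script was tested on simulated data. The pathway list of Arhgap5 enters the counts over all lists and is not reported here on its own.

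The 10 neighbours, the pathway lists and the marker lists were chosen with earlier results of these data known. Genes named were Cfl2, the 10 neighbours, the 5 largest called rises and falls (ties kept) among the 50 genes around Cfl2, up to 3 called genes of each pathway list by size, and the 3 closest profiles of 3 neighbours. Egln3 by array, Kdsr, Sptssb, Sptlc1, Sptlc3, Ormdl3, Gpr33, Prorp and the chromosome 12 genes beyond 1 in size are shown as choices made after their values were seen. Alternatives were other scalings, filters, weights and priors, all probe sets, the mean of a gene's probe sets, the replicate number as a block, an adipocyte covariate, each array left out, and the methods' t-test.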

Additional observations from a re-analysis of the deposited data

Results flagged for a closer look

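Of 44 groups of 6 arrays, for the 10 neighbours, Cfl2 and the named genes around it, 4 held an array far from the other 5, where chance alone would give about 1 in 20. Akap6 was low on the array labelled WT2, at 9.0 beside 9.57 to 9.73 on the other arrays labelled WT. Baz1a was high on the array labelled WT4, at 7.51 beside 6.76 to 6.93. The array labelled WT2 was also high for Nrcam, at 6.85 beside 6.56 to 6.66, and for Prkd1, at 7.81 beside 7.24 to 7.40.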

How the results depend on the processing

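Snx6 (-1.40 to -1.30) and Sptssa (0.49 to 0.69) kept direction and call under all 22 alternatives. Dtd2 kept its call under 20 of 22, losing it with median centring (0.12, adjusted p = 0.0905) and quantile normalization (0.09, adjusted p = 0.280). Nubpl passed under 5 of 21, with adjusted p as low as 0.0242 after quantile normalization. With the adipocyte level as a covariate, 3965 probe sets, 11 of the 50 genes around Cfl2, 40 of the 143 pathway genes and 3 of the 10 neighbours were called, against 6952, 17, 66 and 3 without it; the cause was not tested. Taking the 10 nearest genes on each side gave 8 calls of 20 (40.0%), and all of chromosome 12 gave 206 of 541 (38.1%). These stand beside 34.0% of the 50 genes and 31.9% of all probe sets. Signs turned, never in a called value, for Arhgap5 (-0.032 with the adipocyte covariate, -0.042 with median centring, -0.056 with quantile normalization), Akap6 (-0.011 with array weights) and Npas3 (-0.058 with median centring). Leaving out each array in turn gave -0.071 to 0.049 for Npas3, -0.040 to 0.12 for Akap6, -0.097 to 0.003 for Eapp and -0.004 to 0.042 for Arhgap5. It gave 3 to 4 called neighbours, 14 to 19 of the 50 genes, 50 to 69 pathway genes and 5924 to 7155 probe sets. Arrays of the same number did not deviate together (r between -0.22 and 0.17), so the numbers were not taken as pairs. With the replicate number as a block 6074 probe sets, 3 neighbours, 15 of the 50 genes and 57 pathway genes were called. At an unadjusted p of 0.05 and the fold-change limits of the methods, their t-test called 8864 probe sets (40.7%) and 4 neighbours (40.0%). After Benjamini-Hochberg it called 6342 (29.1%) and 3 (30.0%). Fold changes were taken here from differences of log2 values, and the paper lists fewer genes at its limits. The paper's ratio for Cfl2 is far smaller in size than the 80.0-fold difference here, so the limits are not on a matched scale. Changes of dim probe sets can be understated, and background was not measured.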

Other observations

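Of the 541 genes placed on chromosome 12, 12 differed by more than 1 in size, Egln3 and Snx6 near Cfl2 among them. All 12 were called, and they were picked out after their values were seen. Those higher on the arrays labelled KO were Prkar2b (1.40), Lsmem1 (1.23), Tnfaip2 (1.2), Tshr (1.16), Erg28 (1.03) and Pole2 (1.01). Those lower were Egln3 (-2.0), Kcnf1 (-1.37), Snx6 (-1.34), Serpina3n (-1.14), Ttc9 (-1.04) and Rtl1 (-1.0). The paper reports Serpina3n and Rtl1 as raised in the cofilin-2 deficient mice and Cfl2 as lowered, each the reverse of its direction under the labels. By order, Lsmem1 was the measured gene at place 27 before Cfl2 and Pole2 at place 39 after it, and the remaining ones apart from Egln3 and Snx6 lay at places 53 or farther.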
